A study of Mus musculus with 6 samples.

Results

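The *Trim5*, *Trim12*, *Trim30* and *Trim34* cluster is a run of paralogous genes on mouse chromosome 7 that encode tripartite motif (TRIM) proteins, among them the mouse relatives of the retroviral restriction factor TRIM5. Its 9 members (*Trim34a*, *Trim5*, *Trim12a*, *Trim34b*, *Trim12c*, *Trim30b*, *Trim30c*, *Trim30a* and *Trim30d*, in the order in which they lie) were taken from the 54532 genes counted in each library by matching Ensembl identifiers to gene symbols. The members were chosen with their measured values between the genotypes already known, so their change between genotypes is given as a description, no p-value of a member is printed, and nothing is supported by their calls. RNA-seq was carried out on type 1 conventional dendritic cells (cDC1s) generated from murine bone marrow with FLT3 ligand (FLT3L, 80 ng/mL, day 8), the cytokine that drives dendritic cell development in culture (cDC1s FL). The cells had been sorted as CD24+ CD11c+ cells without B220, CD115 or CD172a. Of 6 libraries, 3 came from *c-Jun/JunB* fl/fl cultures, which carry both floxed genes without Cre (fl/fl 1, 2 and 3), and 3 from cultures with deletion in CD11c+ cells, *c-Jun/JunB* Δ/Δ *Itgax*-Cre (Δ/Δ 1, 2 and 3). The aim was to ask how the transcriptome of cDC1s differs when the genes of the AP-1 factors c-Jun and JunB are deleted. In the Δ/Δ cultures, Cre under the *Itgax* (CD11c) promoter is meant to delete both genes once cells switch on CD11c. The paper places the loss in such mice at the stage of the direct precursors of conventional dendritic cells. The RNA-seq does not measure when deletion took place. The labels give these 3 samples by their floxed alleles and the Cre. The methods give both sexes, an age range and a mixed 129Sv × C57BL/6 background for the study's mice as a whole, but not for the donor of each culture. The strain from which chromosome 7 of each donor came is not stated either, so the genotype and the haplotype carried at the cluster, which is known to vary between mouse strains, cannot be told apart.

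TRIM proteins share an N-terminal RING domain with ubiquitin ligase activity, a B-box and a coiled coil through which they assemble. In TRIM5 and its closest relatives, a C-terminal B30.2/SPRY domain follows, which in primate TRIM5α binds the incoming retroviral capsid. The mouse genes arose by repeated duplication where humans carry fewer copies, many of them are induced by interferons, and TRIM30α is best known as a brake on Toll-like receptor signalling that drives degradation of TAB2 and TAB3, adaptors of the kinase TAK1. Interferon-stimulated transcription runs through factors that include the IRF family and bind the interferon-stimulated response element (ISRE), whereas c-Jun and JunB bind as dimers to the TPA response element (TRE).

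The start sites of the members differed in these motifs. RefSeq promoter windows of 300 bases (250 before and 50 after the first transcribed base) were available for all 9 members, *Trim30a* having 2, and were searched on both strands for exact matches (assembly GRCm38.p6). The ISRE core, taken as GAAA, any 2 bases and GAAA again, stood in 3.44% of 32851 windows of all genes and in those of 6 of 9 members. The TRE, TGANTCA, stood in 7.81% of all windows and in those of 3 members. The stretches below are shown because they group the members by promoter sequence. Each is written 5′ to 3′ on the strand of the gene, with the match in capitals (ISRE core, read from the opposite strand, in the first 6, TRE in the seventh, none in the last pair).
*Trim34a*, chr7:104244427-104244480, plus strand: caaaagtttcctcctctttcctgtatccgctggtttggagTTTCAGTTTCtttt
*Trim5*, chr7:104288142-104288195, minus strand: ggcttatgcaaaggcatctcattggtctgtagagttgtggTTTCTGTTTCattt
*Trim12a*, chr7:104315472-104315525, minus strand: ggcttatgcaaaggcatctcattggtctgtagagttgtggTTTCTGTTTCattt
*Trim12c*, chr7:104353365-104353418, minus strand: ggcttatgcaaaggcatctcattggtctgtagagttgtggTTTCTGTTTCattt
*Trim30a*, chr7:104465216-104465269, minus strand: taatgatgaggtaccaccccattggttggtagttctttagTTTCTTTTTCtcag
*Trim30d*, chr7:104507877-104507930, minus strand: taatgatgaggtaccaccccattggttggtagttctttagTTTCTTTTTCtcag
*Trim34b*, chr7:104329410-104329460, plus strand: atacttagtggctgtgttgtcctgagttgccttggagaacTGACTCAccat
*Trim30b*, chr7:104358647-104358700, minus strand: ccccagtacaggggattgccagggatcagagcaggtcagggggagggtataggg
*Trim30c*, chr7:104400779-104400832, minus strand: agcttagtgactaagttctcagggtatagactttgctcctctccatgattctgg

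The stretch of *Trim5*, *Trim12a* and *Trim12c* was the same in all 54 bases, and so was that of *Trim30a* and *Trim30d*. In the best local alignment of the bases before the start site, *Trim5* and *Trim12a* were identical in 191 of 191 bases, *Trim5* and *Trim12c* in 219 of 229 (95.6%), and *Trim30a* and *Trim30d* in 226 of 244 (92.6%). That of *Trim34a* and *Trim34b*, by contrast, covered only 15 bases. The RefSeq start site of *Trim30b* lies inside the GENCODE gene, so its window is not that of the longest model. *Trim30a* and *Trim30d* also held a TRE, 43 and 38 bases after the start site, and *Trim30c* the interferon-γ motif GAS (TTCNNNGAA), which 8.30% of all windows hold. No member window held the cyclic AMP response element TGACGTCA (1.79% of all windows) or the composite motifs AICE1 and AICE2, at which AP-1 factors and IRF4 or IRF8 bind together (0.125% and 0.119%). A match is a run of letters and does not show binding.

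Libraries held 21693217 to 26788296 reads on genes, and levels are given as CPM, the reads on a gene relative to the size of the library, after TMM scaling by edgeR (factors of 0.989 to 1.01). Replicates differed by more than sampling noise in each pair (chi-square per degree of freedom over genes of 6.76 to 11.2 among the fl/fl and of 30.3 to 42.0 among the Δ/Δ libraries), and all 6 libraries were kept. Here and below, the error of a log2 fold change is its standard error, worked back from the F statistic of edgeR's test. That of a level in CPM is the SD of 3 libraries. Of the deleted genes, *Junb* stood at 314, 274 and 413 CPM across fl/fl 1, 2 and 3, against 110.3, 171 and 211 CPM across Δ/Δ 1, 2 and 3 (log2 fold change −1.02 ± 0.25, edgeR adjusted p = 0.0729). *Jun* had 70.9, 52.4 and 63.1 CPM and 48.1, 44.2 and 60.4 CPM (log2 fold change −0.29 ± 0.15, edgeR adjusted p = 0.345). Reads of both genes were thus still counted in every Δ/Δ library. By quantitative RT-PCR, the paper reports deletion of both genes in cDC1s sorted from spleen and lymph nodes of Δ/Δ mice. For FLT3L cultures of this genotype, it shows the same measurement in a supplementary figure. The stretch of each gene that Cre removes is not given, and neither value measures the share of cells with a deletion. Markers of cDC1s were present in every library, with *Irf8* at 2650 CPM or more and *Clec9a* at 203 CPM or more. Others differed between the genotypes, *Xcr1* and *Tlr3* being lower and *Cadm1* higher in Δ/Δ. All 10 listed cDC1 markers and the other lists of cells are given at the end.

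The 2 *Trim34* genes differed in opposite directions between the genotypes. *Trim34a* (ENSMUSG00000056144.14, chromosome 7, 104244457 to 104262234, plus strand) encodes a TRIM protein with a C-terminal B30.2/SPRY domain, whose human counterpart is known to act with TRIM5α against retroviral capsids. It stood at 45.2, 42.5 and 35.3 CPM across fl/fl 1, 2 and 3, against 13.7, 12.5 and 12.2 CPM across Δ/Δ 1, 2 and 3. The highest Δ/Δ library thus lay 2.58-fold below the lowest fl/fl library, and the mean was 41.0 ± 5.08 CPM in the fl/fl and 12.8 ± 0.80 CPM in the Δ/Δ libraries (SD, n = 3, log2 fold change −1.68 ± 0.12).

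*Trim34b* (ENSMUSG00000090215.9, chromosome 7, 104329471 to 104336909, plus strand), its near copy 67 kb further on, was at the other end of the range of levels. It was counted with 17, 16 and 6 reads in fl/fl 1, 2 and 3 (0.655, 0.593 and 0.254 CPM) and with 89, 58 and 62 reads in Δ/Δ 1, 2 and 3 (3.61, 2.70 and 2.73 CPM). All 3 Δ/Δ libraries lay above the fl/fl libraries, by 4.13-fold at the closest pair. The mean was 0.501 ± 0.216 CPM in the fl/fl and 3.01 ± 0.515 CPM in the Δ/Δ libraries (n = 3, log2 fold change 2.57 ± 0.38). *Trim34b* reached 10 reads in 2 of 3 fl/fl libraries and in all Δ/Δ libraries. It made up 1.43, 1.37 and 0.714% of the summed CPM of the pair in fl/fl 1, 2 and 3, and 20.8, 17.8 and 18.3% in Δ/Δ 1, 2 and 3. The sum of the pair was nevertheless lower in Δ/Δ, at 15.8 ± 1.31 CPM against 41.5 ± 5.29 CPM, since the difference in *Trim34a* was larger in CPM than that in *Trim34b*.

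**Figure D1:**
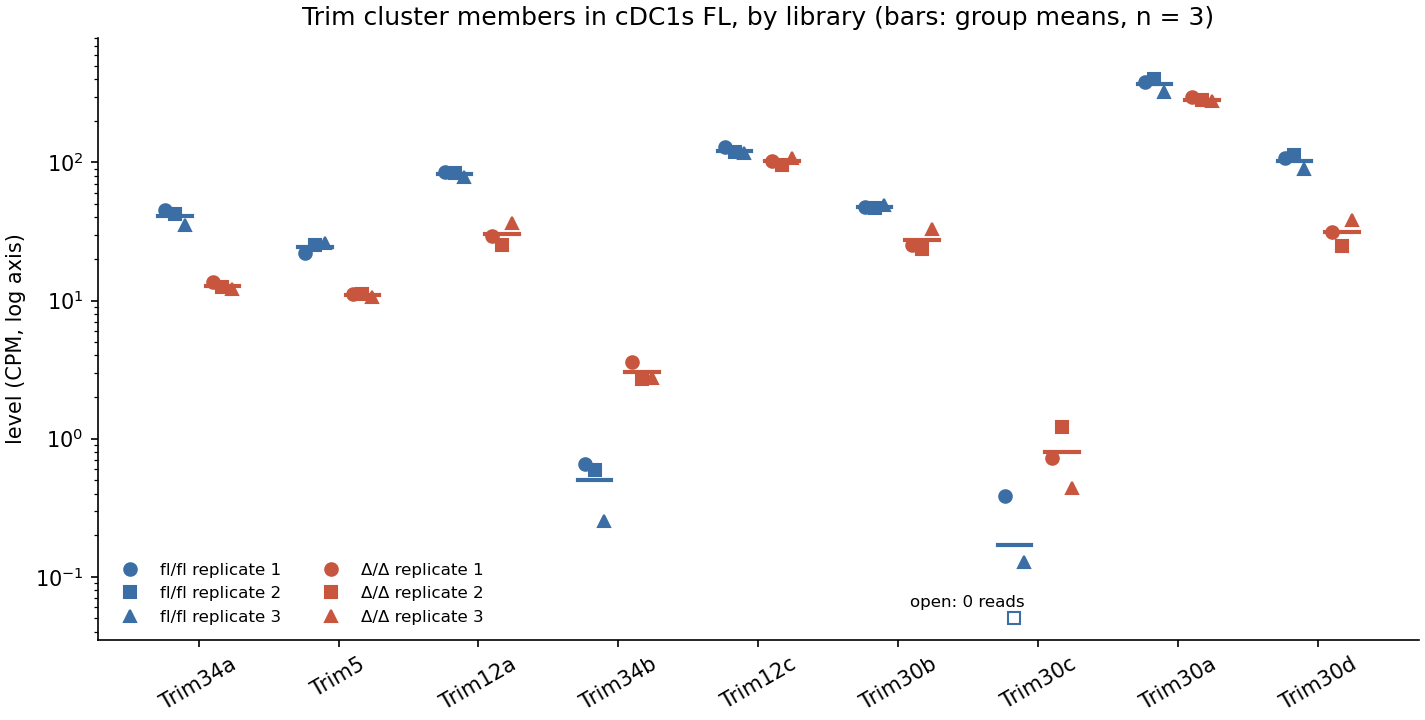
Level of the 9 cluster members in CPM on a log axis, in their order on the chromosome, for each fl/fl (blue) and Δ/Δ (red) library, with bars at the group means (n = 3 each) and an open symbol at the bottom for the library without reads. For 7 members all red points lie below the blue ones, and for *Trim34b* and *Trim30c*, the members with the lowest levels, above them.

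The *Trim5* and *Trim12* genes, the closest mouse relatives of human *TRIM5*, differed in degree. *Trim5* (ENSMUSG00000060441.15, 104263386 to 104288094, minus strand) stood at 22.2, 25.5 and 26.1 CPM across fl/fl 1, 2 and 3, against 11.1, 11.2 and 10.6 CPM across Δ/Δ 1, 2 and 3. The Δ/Δ libraries were within 1 CPM of each other and 1.98-fold or more below each fl/fl library (24.6 ± 2.10 against 11.0 ± 0.332 CPM, n = 3, log2 fold change −1.16 ± 0.11). *Trim12a* (ENSMUSG00000066258.13, 104299894 to 104315466, minus strand), which encodes a short protein without the capsid-binding B30.2/SPRY domain, stood at 85.7, 83.2 and 77.8 CPM across fl/fl 1, 2 and 3, against 29.2, 25.4 and 36.5 CPM across Δ/Δ 1, 2 and 3. Its groups were 2.13-fold apart at the closest pair (82.2 ± 4.03 against 30.4 ± 5.63 CPM, n = 3, log2 fold change −1.44 ± 0.13). *Trim12c* (ENSMUSG00000057143.15, 104338754 to 104353362, minus strand), known in macrophages for promoting interferon and NF-κB signalling with TRAF6, stood at 128, 119 and 117 CPM across fl/fl 1, 2 and 3, against 102, 96.0 and 108 CPM across Δ/Δ 1, 2 and 3. Its groups did not overlap but were only 1.09-fold apart at the closest pair (122 ± 6.07 against 102 ± 6.01 CPM, n = 3, log2 fold change −0.25 ± 0.07). The 3 genes share the promoter stretch printed above, which begins at base −89, −30 and −69 from the start site in *Trim5*, *Trim12a* and *Trim12c*. The 3 genes differed between genotypes to unlike degrees, and whether the promoter sequence has a part in this was not tested.

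As a result, the composition of the group shifted. *Trim12a* made up 40.0, 41.2 and 39.9% of the CPM of *Trim12a* and *Trim12c* in fl/fl 1, 2 and 3, and 22.3, 20.9 and 25.2% in Δ/Δ 1, 2 and 3. The 3 genes together held 228 ± 7.62 CPM in the fl/fl and 143 ± 11.3 CPM in the Δ/Δ libraries.

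Among the *Trim30* genes, the most abundant copy differed least on the log2 scale. *Trim30a* (ENSMUSG00000030921.17, 104409025 to 104465193, minus strand), the founding member that restrains Toll-like receptor signalling, stood at 383, 399 and 325 CPM across fl/fl 1, 2 and 3, against 296, 283 and 278 CPM across Δ/Δ 1, 2 and 3. The lowest fl/fl library lay 1.10-fold above the highest Δ/Δ library (369 ± 39.3 against 286 ± 9.36 CPM, n = 3, log2 fold change −0.37 ± 0.08). *Trim30d* (ENSMUSG00000057596.13, 104470014 to 104507849, minus strand), next to *Trim30a* and described as an interferon-induced factor against flaviviruses, stood at 107, 113 and 89.5 CPM across fl/fl 1, 2 and 3, against 31.4, 24.8 and 38.2 CPM across Δ/Δ 1, 2 and 3. The difference was 2.34-fold at the closest pair (103 ± 12.2 against 31.5 ± 6.68 CPM, n = 3, log2 fold change −1.71 ± 0.16). *Trim30b* (ENSMUSG00000052749.9, 104355382 to 104369884, minus strand) stood at 47.3, 46.4 and 49.1 CPM across fl/fl 1, 2 and 3, against 25.4, 23.7 and 32.8 CPM across Δ/Δ 1, 2 and 3. With 47.6 ± 1.38 against 27.3 ± 4.83 CPM (n = 3, log2 fold change −0.80 ± 0.13), it lay between *Trim30a* and *Trim30d*, and its longest annotated coding sequence that starts with ATG covers 203 residues, against 496 in *Trim30a*.

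*Trim30c* (ENSMUSG00000078616.2, 104382065 to 104400837, minus strand) was hardly transcribed. It was counted with 10, 0 and 3 reads in fl/fl 1, 2 and 3 (0.385, 0 and 0.127 CPM), where the 0 allows up to 0.111 CPM by counting error, and with 18, 26 and 10 reads in Δ/Δ 1, 2 and 3 (0.730, 1.21 and 0.440 CPM). The groups did not overlap, but the closest pair of libraries rested on 10 reads each and was 1.14-fold apart (log2 fold change 2.18 ± 0.88). *Trim30d* made up 21.8, 22.0 and 21.6% of the CPM of *Trim30a* and *Trim30d* in fl/fl 1, 2 and 3 and 9.60, 8.06 and 12.1% in Δ/Δ 1, 2 and 3. The printed stretch of 54 bases with the ISRE core is the same in both genes, and its part in these shares was not tested. In the second window of *Trim30a*, which is not printed, the bases before the ISRE core differ.

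**Figure D2:**
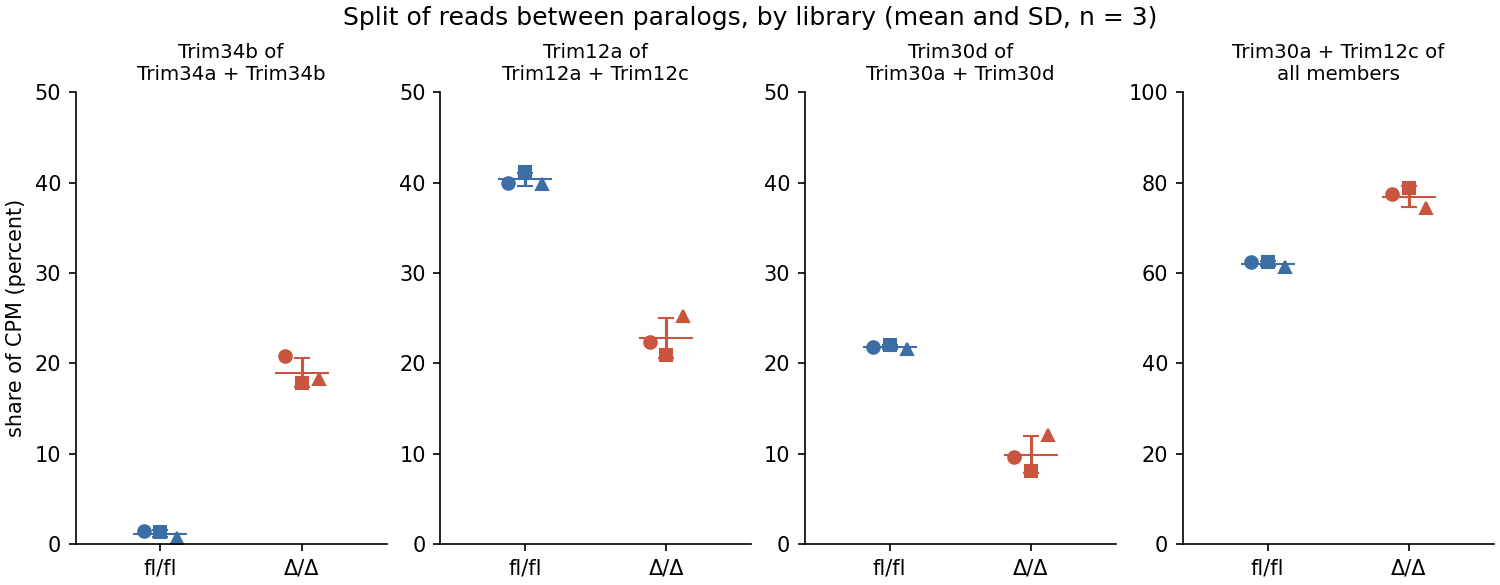
Share of CPM, in percent, held by 1 copy of each pair of paralogs (and by *Trim30a* and *Trim12c* together among all 9 members) in each fl/fl (blue) and Δ/Δ (red) library, with mean and SD (n = 3). The copy whose share is drawn is higher in Δ/Δ for *Trim34b*, lower for *Trim12a* and *Trim30d*, and *Trim30a* with *Trim12c* lies at 61.4 to 62.5% in fl/fl and at 74.3 to 78.9% in Δ/Δ, with no overlap in any panel.

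Genotypes were compared by edgeR's quasi-likelihood test over 12894 genes with enough reads, and genes are termed called where the adjusted p was under 0.05 and the log2 fold change was 1 or more, up or down. All 9 members passed the filter on low counts, *Trim34b* and *Trim30c* because of their Δ/Δ libraries, in which alone each had 10 reads in all 3. Of the 9, 4 were called lower in Δ/Δ (*Trim34a*, *Trim5*, *Trim12a* and *Trim30d*), against 0.869% of all tested genes, and 1 was called higher (*Trim34b*), against 0.993%, or 5 against 1.86% in either direction. At an adjusted p under 0.05 alone, which 3.88% of all tested genes reached, *Trim30b* was added. Every Δ/Δ library lay below every fl/fl library for 7 members and above for 2, where 12.3% and 13.7% of all tested genes did so. Since the members were chosen on this contrast, nothing is read from these shares. The median log2 fold change of the members was −0.80, beside 0.00 for all tested genes. The call of *Trim34b* was lost without fl/fl 1 and without fl/fl 2, with log2 fold changes of 2.80 and 2.70, and the other 4 members stayed past both limits with each library left out.

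The members with the largest differences were not the most abundant ones. Levels were compared between genes only as CPM per kb of annotated exon, which counts all annotated isoforms. In fl/fl, *Trim30a* stood first with 89.8 ± 9.56 CPM per kb, followed by *Trim12c* (32.5 ± 1.62), *Trim30d* (27.4 ± 3.25), *Trim34a* (15.8 ± 1.96), *Trim12a* (14.2 ± 0.697), *Trim5* (6.66 ± 0.568), *Trim30b* (6.33 ± 0.183), *Trim34b* (0.271 ± 0.117) and *Trim30c* (0.0995 ± 0.114). In this order, the libraries of *Trim34a* and *Trim12a* overlapped, as did those of *Trim5* and *Trim30b* and those of *Trim34b* and *Trim30c*. In Δ/Δ, *Trim30a* (69.5 ± 2.28 CPM per kb), *Trim12c* (27.2 ± 1.61) and *Trim30d* (8.37 ± 1.78) kept the first 3 places. Below them, *Trim12a* (5.25 ± 0.973) and *Trim34a* (4.94 ± 0.308) overlapped, *Trim30b* (3.63 ± 0.641) lay above *Trim5* (2.98 ± 0.0900), and *Trim34b* (1.63 ± 0.278) came closer to them than in fl/fl. The lowest was again *Trim30c* (0.463 ± 0.227).

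Summed over all 9 members, the cluster held 820, 829 and 720 CPM across fl/fl 1, 2 and 3, against 513, 480 and 519 CPM across Δ/Δ 1, 2 and 3, so that the Δ/Δ mean was 63.8% of the fl/fl mean. *Trim30a* alone was 45.1 to 48.2% of the sum in fl/fl and 53.5 to 58.9% in Δ/Δ. Without *Trim30a* the sum was 421 ± 22.1 CPM in the fl/fl and 219 ± 22.0 CPM in the Δ/Δ libraries. Within fl/fl, replicate 3 was the lowest library for 6 of 9 members. Within Δ/Δ, replicate 2 was the lowest for 5 and replicate 3 the highest for 4, among them *Trim12a*, *Trim30b* and *Trim30d*.

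**Figure D3:**
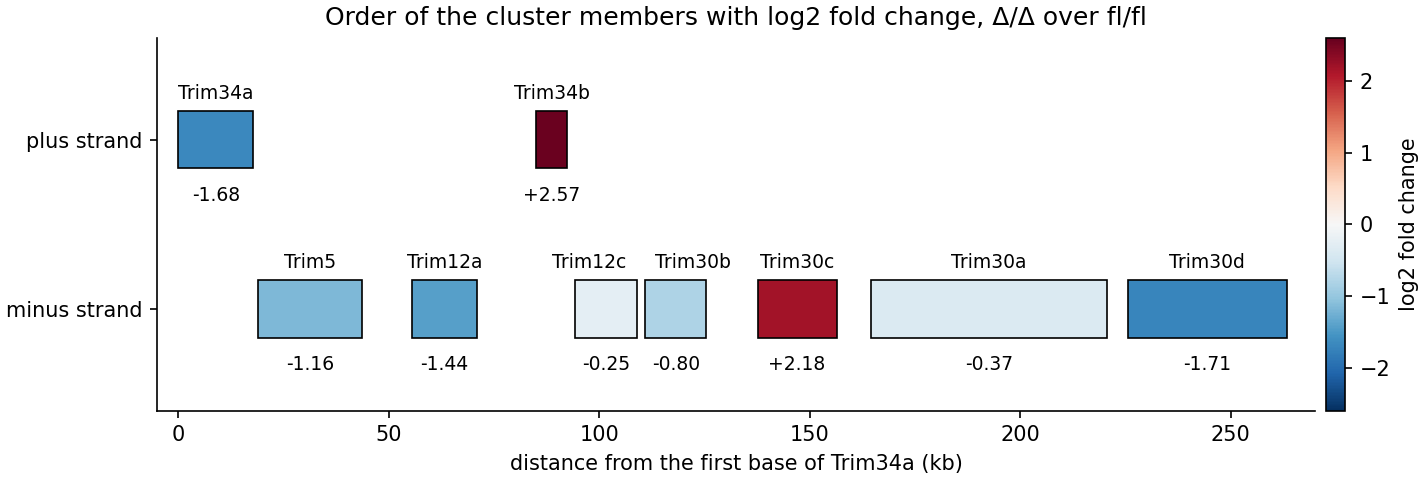
The 9 members drawn to scale by their distance in kb from the first base of *Trim34a*, on the plus or the minus strand, coloured by and printed with the log2 fold change of Δ/Δ over fl/fl. Members higher in Δ/Δ (2.57 and 2.18) lie between members that are lower, and those that differ most downwards (−1.71 and −1.68) stand at both ends of the cluster.

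By position, the differences did not follow the order of the genes. The cluster spans 263393 bases, and its first and last members, *Trim34a* and *Trim30d*, had the most negative log2 fold changes, while *Trim12c*, *Trim30b* and *Trim30a* between them were closer to 0. Nor did close sequence go with a like difference in each pair. *Trim5* and *Trim12a*, with log2 fold changes of −1.16 and −1.44, were identical in 97.1% of the 891 coding bases of *Trim12a*. The coding sequences of *Trim34a* and *Trim34b* were identical in 1420 of 1455 bases (97.6%), those of *Trim5* and *Trim12c* in 96.6%, those of *Trim12a* and *Trim12c* in 96.4% and those of *Trim30a* and *Trim30d* in 90.2%, and the log2 fold changes within these 4 pairs were −1.68 and 2.57, −1.16 and −0.25, −1.44 and −0.25, and −0.37 and −1.71. Between the *Trim34* genes and the other members, identity was 59.3 to 68.2%.

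Near-identical copies limit what unique reads can tell. The authors counted reads that map to a single place, with read lengths of 75 bases. Of all stretches of 75 bases in its transcripts, *Trim34a* shared 29.5% with *Trim34b*, which in turn shared 42.5% with *Trim34a*, and neither shared any with another member. The part shared with other members was 16.8% in *Trim5*, 15.2% in *Trim12c*, 4.46% in *Trim12a*, 5.41% in *Trim30d*, 4.98% in *Trim30a*, 0.078% in *Trim30b* and 0% in *Trim30c*. Reads in these stretches may be lost unless the mate lies outside them, and which copy a read is assigned to can rest on 1 mismatch to the reference, so the split between *Trim34a* and *Trim34b* and among *Trim5*, *Trim12a* and *Trim12c* is uncertain to an extent that was not tested. Apart from copies, 609 bases (23.5%) of the exons of *Trim34a* lie opposite the antisense gene *Gm47248*, 108 bases of *Trim5* exons hold the small nuclear RNA gene *Gm24846* and 100 bases of *Trim12c* exons *Gm27995*. As the strand column used is not stated, reads from *Trim34a* and *Gm47248* may not be separate.

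Genes around the cluster were mostly silent. Within 1 Mb on each side, 162 other genes are annotated, of which 102 are olfactory receptor (*Olfr*) genes, and 149 had no read in any library. Of the 4 tested, none was called, and both genes that overlap the span of a member were low. *Gm15133*, antisense to *Trim12a*, whose start it overlaps without sharing exons while most of it lies outside, had 2.51 ± 0.239 CPM in the fl/fl and 0.888 ± 0.451 CPM in the Δ/Δ libraries (log2 fold change −1.50 ± 0.37, edgeR adjusted p = 0.0798). *Gm16464*, a processed pseudogene in the span of *Trim30d* on the same strand, had 2.91 ± 0.687 and 1.12 ± 0.407 CPM (log2 fold change −1.37 ± 0.34, edgeR adjusted p = 0.0800). *Gm5900* and *Fam160a2* had log2 fold changes of 0.63 and −0.30 (edgeR adjusted p = 0.517 and 0.623).

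In the rest of the TRIM family, no gene was called. Of 60 other *Trim* genes in the annotation, 29 were tested, with a median log2 fold change of 0.03 and a range of −0.60 to 0.94. *Trim21*, an interferon-inducible cytosolic antibody receptor, was the only one with an adjusted p under 0.05, with 45.3, 44.0 and 43.7 CPM across fl/fl 1, 2 and 3, against 35.5, 30.7 and 34.3 CPM across Δ/Δ 1, 2 and 3 (log2 fold change −0.40 ± 0.08, edgeR adjusted p = 0.0394, over the alternatives 0.00285 to 0.181). In a list of 7 TRIM genes outside the cluster linked to interferon or antiviral signalling, which includes *Trim21*, *Pml*, the organiser of nuclear bodies, also fell, from 122 ± 23.1 to 67.7 ± 11.6 CPM (log2 fold change −0.85 ± 0.17, edgeR adjusted p = 0.0433, over the alternatives 3.65e-05 to 0.194). *Mefv*, which encodes the inflammasome sensor pyrin, had 0.644 ± 0.451 and 3.86 ± 2.89 CPM (log2 fold change 2.58 ± 0.68, edgeR adjusted p = 0.0918), with 7.18 CPM in Δ/Δ 2 against 1.91 and 2.51 CPM in Δ/Δ 1 and 3. *Trim14*, *Trim25*, *Trim26* and *Trim56* lay between −0.20 and 0.02 (edgeR adjusted p = 0.369 to 0.885). The median of the list was −0.13.

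Other genes listed as restriction factors, against retroviruses, retroelements or other viruses, mostly had negative log2 fold changes. Of 15 tested, none was called, 14 had a negative value, and the median was −0.23 beside 0.00 for all tested genes. Every Δ/Δ library lay below every fl/fl library for 7 of the 15, beside 12.3% of all tested genes. *Apobec3*, the cytidine deaminase that is packaged into virions, fell from 225 ± 8.52 to 122 ± 18.2 CPM (log2 fold change −0.89 ± 0.11, edgeR adjusted p = 0.00782, over the alternatives 2.32e-11 to 0.0596). *Mx1*, an interferon-induced GTPase, fell from 157 ± 9.12 to 88.8 ± 8.88 CPM (log2 fold change −0.82 ± 0.09, edgeR adjusted p = 0.00472), under 0.05 in all 12 alternatives. *Bst2*, which encodes the virion tether tetherin, had a log2 fold change of −0.41 (edgeR adjusted p = 0.0572). *Ifitm1*, whose product blocks viral entry, stood at 66.3, 83.6 and 226 CPM across fl/fl 1, 2 and 3, against 227, 399 and 224 CPM across Δ/Δ 1, 2 and 3, with overlapping groups (log2 fold change 1.18, edgeR adjusted p = 0.239).

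Of the proteins that act with TRIM5 or TRIM30α, neither the TAK1 complex (*Map3k7*, *Tab1*, *Tab2*, *Tab3*), nor the ubiquitin-conjugating enzymes (*Ube2n*, *Ube2v1*, *Ube2v2*), nor *Traf6*, nor the cyclophilins (*Ppia*, *Ppif*) passed the test. These 10 genes had log2 fold changes from −0.35 to 0.24. *Tab2* and *Tab3*, whose products TRIM30α is known to target, were at 0.16 ± 0.05 and −0.03 ± 0.12 (log2 fold change, edgeR adjusted p = 0.158 and 0.913).

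Among 14 listed genes of the interferon pathway, 1 was called, beside 1.86% of all tested genes. Whether the pathway acts on the cluster in these cells was not tested. *Irf7*, the transcription factor that amplifies type I interferon production and is itself induced by interferon, stood at 113, 93.9 and 77.0 CPM across fl/fl 1, 2 and 3, against 24.6, 27.3 and 45.3 CPM across Δ/Δ 1, 2 and 3 (log2 fold change −1.54 ± 0.25, edgeR adjusted p = 0.0209). Its call was lost without fl/fl 1 (log2 fold change −1.40, edgeR adjusted p = 0.111), without fl/fl 2 (log2 fold change −1.55, edgeR adjusted p = 0.103) and with a replicate block (log2 fold change −1.58, edgeR adjusted p = 0.0508). The receptor chains *Ifnar1*, *Ifnar2*, *Ifngr1* and *Ifngr2*, the kinases *Jak1* and *Tyk2*, and *Stat2*, *Irf9*, *Irf1*, *Irf3*, *Irf5* and *Irf8* did not pass, with values from −0.21 to 0.16.

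**Figure D4:**
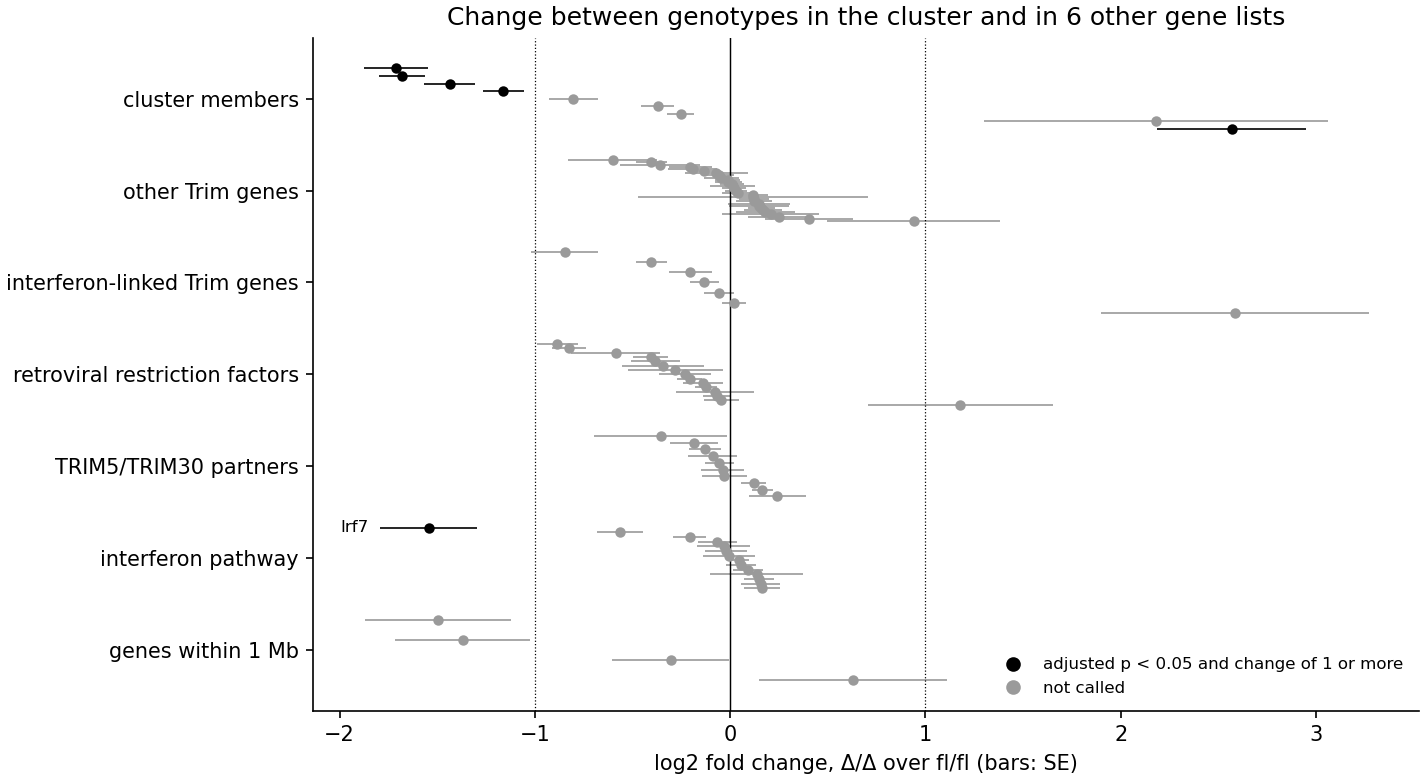
Log2 fold change of Δ/Δ over fl/fl with its standard error for each tested gene of the cluster and of the 6 other lists (a gene on 2 lists is drawn in both), in black where called and in grey otherwise, with dotted lines at a change of 1. The members spread from −1.71 to 2.57, while the other *Trim* genes lie between −0.60 and 0.94, and *Irf7* is the only black point outside the cluster.

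The genes whose profile over the 6 libraries was most like that of *Trim30a* were *Herc3*, *Chpf*, *Rcn2*, *Crocc* and *Nup88*, with a root mean square difference of centred log2 CPM of 0.0358 to 0.0525. They lie on chromosomes 6, 1, 9, 4 and 11 and had log2 fold changes of −0.37 to −0.29. Those most like *Trim34b* were *Plekha7*, *Gm10093*, *Tdpx-ps1*, *Gm42648* and *Gm7809*, with a difference of 0.270 to 0.431. Their levels were low in fl/fl, from 0.153 ± 0.0932 CPM for *Tdpx-ps1* to 1.68 ± 0.404 CPM for *Gm10093*, and 1.18 to 6.05 CPM in Δ/Δ, and *Plekha7* lies on the chromosome of the cluster.

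Markers of other cells differed between the genotypes as well. Of 10 cDC1 markers, which together held 10686 to 11006 CPM in fl/fl and 8720 to 10604 CPM in Δ/Δ, *Xcr1*, a chemokine receptor of cDC1s, was called lower (421 to 475 CPM in fl/fl and 122 to 201 CPM in Δ/Δ, edgeR adjusted p = 0.00812). *Tlr3* was lower but not called (456 to 482 CPM in fl/fl and 220 to 308 CPM in Δ/Δ, log2 fold change −0.77, edgeR adjusted p = 0.0226). Of the rest, *Naaa*, *Cd24a*, *Wdfy4* and *Clec9a* were at −0.36 to −0.13, and *Irf8*, *Batf3*, *Cadm1* and *Itgae* at 0.04 to 1.10. The 8 cDC2 markers summed to 196 to 302 CPM in fl/fl and 478 to 657 CPM in Δ/Δ, with *Cd209a* and *Cd4* called higher. Among those not called, *Klf4*, *Itgam*, *Mgl2* and *Irf4* had log2 fold changes of 0.71 to 1.26, of which only *Klf4* had an adjusted p under 0.05 (log2 fold change 0.97, edgeR adjusted p = 0.0321). *Sirpa* and *Esam* went the other way, with −0.21 and −0.16. The 7 pDC markers summed to 225 to 243 CPM and 245 to 295 CPM, with *Ccr9* called higher. Of the rest, *Ly6d*, *Spib*, *Tcf4* and *Siglech* had log2 fold changes of 0.09 to 1.44, and *Bst2* and *Pacsin1* of −0.41 and −0.02. The 6 monocyte and macrophage markers summed to 31.8 to 41.8 CPM and 49.3 to 69.5 CPM with none called. The 6 neutrophil markers (4.16 to 16.9 CPM and 0.851 to 7.41 CPM, *Ly6g* and *Elane* without reads), the 4 B cell markers (13.0 to 22.0 CPM and 7.99 to 37.8 CPM) and the 5 T and NK cell markers (0.617 to 0.852 CPM and 0.486 to 0.979 CPM) overlapped between genotypes. In bulk samples, fewer cells of a type and less RNA per cell cannot be told apart, and the part of these markers in the values of the cluster was not tested.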

How the data were processed

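Bone marrow cultures with FLT3L gave 3 fl/fl and 3 Δ/Δ cDC1s FL libraries (poly(A) RNA, NEBNext Ultra II Directional, paired-end reads). The authors aligned reads to mm10 (GRCm38) with STAR 2.6.1a and Gencode vM19 and deposited raw counts of uniquely mapped reads per gene, without normalization or pooling. The strand column is not stated. Of 54532 identifiers, 54495 were found in GENCODE M21, used for names, coordinates and exons. STAR's tallies outside genes were left out (79.1 to 79.7% of reads lay on genes).

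The counts were analysed with edgeR 4.0.16 by glmQLFit and glmQLFTest on genotype, after TMM scaling and a filter on low counts (filterByExpr, at least 10 reads and 15 in total), with Benjamini-Hochberg adjustment over 12894 genes. The study's supplement describes the samples of this RNA-seq as individual mice, so the spread is that between mice. Limits from a count of 0 are 3 reads per library and cover counting error only. Log2 CPM used a prior count of 2. The fits were tested on simulated data.

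The members and the gene lists were chosen with earlier results of these data known. Named genes are the members, called genes of each list or those near the limits, *Jun* and *Junb*, and the 5 genes nearest in profile to *Trim30a* and *Trim34b*. List genes that were not called, and marker genes, were named after their values were seen. Some results under this rule are not reported here. Promoter windows came from RefSeq (GRCm38.p6), and coding sequences and stretches of 75 bases from GENCODE M21 transcripts. As alternatives, results were recomputed with size factors or the Wald test of DESeq2 1.42.0, with limma-voom (limma 3.58.1), without a filter, with a stricter one (10 reads in 3 libraries and 1 CPM on average), leaving out each library, with a replicate block and by the adjusted p alone.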

Additional observations from a re-analysis of the deposited data

How the results depend on the processing

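Over the 107 values of the members' log2 fold changes under the alternatives, none changed sign, and 1 moved by more than the spread between replicates, that of *Trim30c* without fl/fl replicate 1 (3.61). *Trim30c* was not tested under the stricter filter. The number of called members was 5 with DESeq2's size factors, DESeq2's Wald test, limma-voom, both other filters and the replicate block, 6 by the adjusted p alone, and 4 to 5 with 1 library left out. Genes called in all were 385 by DESeq2's Wald test, 500 by the adjusted p alone, and 76 to 564 with 1 library left out (76, 83 and 156 on leaving out fl/fl 1, 2 or 3, and 564 and 374 on leaving out Δ/Δ 1 or 2), instead of 240. By the adjusted p alone, the counts were 1 other *Trim* gene, 2 interferon-linked *Trim* genes, 2 restriction factors and 2 interferon pathway genes. DESeq2's Wald test called 1 interferon-linked *Trim* gene and 2 neighbouring genes, and the fit without a filter 1 interferon-linked *Trim* gene. With 1 library left out, 0 to 1 other *Trim* genes, 0 to 1 interferon-linked *Trim* genes, 0 to 1 restriction factors, 0 to 1 interferon pathway genes and 0 to 1 neighbouring genes were called. The causes were not tested.

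The correlations of the deviations from the group means between libraries of the same replicate number were 0.0910, −0.148 and 0.200 for numbers 1, 2 and 3. Without those of unlike numbers beside them, these values cannot decide whether the numbers pair the samples. With the replicate block, 207 genes were called, the members' log2 fold changes lay between −1.73 (*Trim30d*) and 2.62 (*Trim34b*), and 0 interferon pathway genes were called, *Irf7* being at an adjusted p of 0.0508. At the depth of these libraries, *Trim30c* and *Trim34b* in fl/fl rest on at most 17 reads a library.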

Other observations

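Beyond 1 Mb from the cluster, the nearest called genes on chromosome 7 were chosen after their values were seen. Within 5 Mb on either side, 3 of 71 tested genes that are no members were called, all higher in Δ/Δ, and within 20 Mb 6 of 209 (2.87%), beside 1.82% of all tested genes that are no members. *Inppl1*, which encodes the lipid phosphatase SHIP2 and lies 2.41 Mb from the cluster, had 9.29 ± 0.395 CPM in the fl/fl and 36.1 ± 3.44 CPM in the Δ/Δ libraries (n = 3, log2 fold change 1.96, edgeR adjusted p = 0.000410). *9130208D14Rik*, 1.32 Mb from it, had 0.226 ± 0.132 and 8.50 ± 1.64 CPM (log2 fold change 5.22, edgeR adjusted p = 0.00225). *Dkk3*, an extracellular Wnt modulator 7.61 Mb away, had 32.4 ± 4.99 and 3.15 ± 1.97 CPM (log2 fold change −3.35, edgeR adjusted p = 0.0100). *Gm35082*, 3.57 Mb away, had 0 reads in the fl/fl libraries and 1.34, 0.932 and 3.26 CPM in Δ/Δ 1, 2 and 3.

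Among tested genes other than the members, 367 had the ISRE core in a promoter window, of which 17 (4.63%) were called lower and 7 (1.91%) higher in Δ/Δ. Of 8939 with a window but no match, 64 (0.716%) were called lower and 60 (0.671%) higher. The median log2 fold changes of the sets were −0.05 and −0.01. These shares are a description, and whether the motif has a part in them was not tested.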
